A study of Mus musculus with 19 samples.

Results

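The cells described here are the macrophages of the skin tumours of the study, 1867 of the 22161 filtered cells of the matrices labelled KO skin and WT skin, and of the 54929 filtered cells of the series. A cell was taken as a macrophage where it had at least 1000 UMIs, at least 200 genes and under 20% mitochondrial UMIs, had a UMI of at least 5 of the genes C1qa, C1qb, C1qc, Adgre1, Csf1r, Ms4a7, Mrc1 and Fcgr1, and had no UMI of Cd3e, Cd79a, Pecam1 or Csf3r. The matrix labelled KO skin held 766 such cells, 6.25% of its 12259 filtered cells (exact binomial 95% interval 5.83 to 6.69), and the matrix labelled WT skin held 1101, 11.1% of its 9902 (10.5 to 11.8). The cells were thus chosen by the detection of those genes, so the levels of the 8 positive genes are a description and the 4 negative genes are at 0 by construction. A share of a cell type depends on how a tumour was dissociated as well as on its makeup, and these cannot be told apart.

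The study compared tumours grown from Melan-a cells, an immortalised mouse melanocyte line, with and without CRISPR knockout of Bap1, a tumour suppressor that removes ubiquitin from histones. Cells were injected into syngeneic mice in the eye or under the skin, and dissociated tumour tissue was profiled on the 10x Genomics platform, with 1 matrix for each genotype and site. KO skin is therefore subcutaneous tumour tissue of BAP1 knockout Melan-a cells, and WT skin subcutaneous tumour tissue of unedited Melan-a cells, with no drug in either. The macrophages come from the host mice and not from the injected line. Genotype and site are known only through the submitters' name for each matrix. The design names several knockout clones, and which of them gave the KO skin tissue was not stated by the sources used. Nor were the number of tumours, the number, age, sex and strain of the mice, and any pooling of animals. The sample's title calls the dissociated tumour tissues multiplexed, without saying how. With 1 matrix a genotype there is no replicate: no difference was tested, each difference compares these 2 matrices rather than the genotypes, and every interval covers counting error only.

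Macrophages of a tumour derive from blood monocytes and from cells that settled in the tissue before birth. They engulf dying cells and debris through scavenger, Fc and phosphatidylserine receptors, degrade them in lysosomes, store or export the lipid, and can present peptides on MHC class II to CD4 T cells. Older schemes call them inflammatory when they make cytokines such as IL-1beta and nitric oxide, and alternatively activated when they express lectins and arginase, and cells of tumours often show parts of both. In pigmented tumours macrophages also take up melanin and melanosomes, and are then called melanophages.

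The summed UMIs were 5.71 M in KO skin macrophages and 11.3 M in WT skin macrophages, with medians of 5197.5 and 7068 UMIs a cell, 2420.5 and 2924 genes, and 0.217% and 0.873% mitochondrial UMIs. No full barcode occurred in both matrices. The first 16 bases were shared by 2417 barcodes of the 2 skin matrices, among them those of 200 KO skin macrophages (26.1%) and 239 WT skin macrophages (21.7%), against 18.5% and 21.1% of all filtered cells. Scrublet called 4 doublets in KO skin and 0 in WT skin, too few for a working caller, so doublets were not removed and its score served only for an alternative. A UMI of a Y-linked gene (Ddx3y, Eif2s3y, Uty or Kdm5d, examined after other values were seen) was present in 330 KO skin macrophages (43.1%, 39.5 to 46.7) and in 2 WT skin macrophages (0.182%, 0.0220 to 0.655). The share was 46.7% and 0% in endothelial cells and 1.34% and 0.419% in melanocytic cells of KO skin and WT skin. The host tissue of the matrices thus differs in Y-linked RNA, and this difference and the genotype cannot be told apart. Bap1 itself stood at 43.1 CPM (the UMIs of a gene scaled to a fixed total over all genes; 246 UMIs) in KO skin macrophages and 37.4 CPM (423 UMIs) in WT skin macrophages.

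The macrophage label held for genes that the rule did not use. Cd68, a lysosomal glycoprotein of macrophages, stood at 2090 CPM in KO skin and 2783 CPM in WT skin macrophages, against 65.5 and 143 CPM in melanocytic cells. Lyz2, lysozyme, stood at 5681 and 4625 CPM, against 93.9 and 110 CPM, and Mpeg1, a pore-forming protein of phagocytes, at 2144 and 2655 CPM, against 37.8 and 56.3 CPM. Of 13 macrophage genes outside the rule, 1 was past 2-fold between the matrices, the endotoxin co-receptor Cd14, at 68.8 CPM in KO skin and 163 CPM in WT skin. That call ended when each cell was thinned to 1000 UMIs (log2 ratio -0.92), and neutrophils held more Cd14, at 134 and 930 CPM. The 20 genes with the highest macrophage level over all other filtered cells, a description since the rule chose the cells, included Ccl12, Folr2, Fcrls, Siglec1, Trem2, Pf4, Igf1, Stab1 and Plau beside the rule genes, at 8.37 to 16.4 times the other cells. The 15 dendritic cell markers summed to 109 CPM in KO skin and 88.0 CPM in WT skin, of which Cacnb3 made up 91.1 and 74.7 CPM. Xcr1 was at 0 in both matrices, Flt3 had 1 and 0 UMIs, Clec9a 2 and 3, Ccr7 0 and 1, Cd209a 14 and 7, and Zbtb46 37 and 44.

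At the threshold, the 163 KO skin cells with 5 rule genes had 2465 CPM of the rule genes and 20979 CPM of the other macrophage genes, and the 161 with 4, just outside, had 917 and 10320 CPM. In WT skin the 187 cells with 5 rule genes had 2027 and 14254 CPM, and the 212 with 4 had 870 and 8589 CPM. All 8 rule genes were detected in 163 KO skin and 325 WT skin macrophages. Among the rule genes, Mrc1, the mannose receptor CD206, stood apart: 795 CPM in KO skin and 369 CPM in WT skin, a log2 ratio of 1.11, or 0.76 after thinning. C1qb was also higher in KO skin, at 2907 against 1991 CPM, while C1qa (1582 and 2501 CPM) and C1qc (940 and 1350 CPM), which encode the other chains of the same complement protein, were lower. Adgre1 stood at 306 and 406 CPM, Csf1r at 318 and 408, Ms4a7 at 345 and 477, and Fcgr1 at 108 and 104.

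Across the 8248 genes with at least 20 CPM in 1 of the 2 matrices, 590 (7.15%) were at least 2-fold higher in KO skin macrophages and 394 (4.78%) at least 2-fold lower. The median log2 ratio over all of them was 0.14, and list medians are read against that shift. Scaling to the median gene changed the split: 43.2% of the called genes were higher under it, against 60.0% as reported, with 392 higher and 516 lower. Much of the difference was shared with other cells of the same matrix: 460 of the 590 and 335 of the 394 were past 2-fold in the same direction in all other filtered cells, and 433 and 218 had a lower level in macrophages than in melanocytic cells. Among the 1032 genes at least 2-fold above melanocytic cells, 102 (9.88%) were higher and 106 (10.3%) lower, of which 20 and 84 were also past 2-fold in the other cells. The gene groups below were read with that in view, and a ratio in other cells is given where it was similar.

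**Figure D1:**
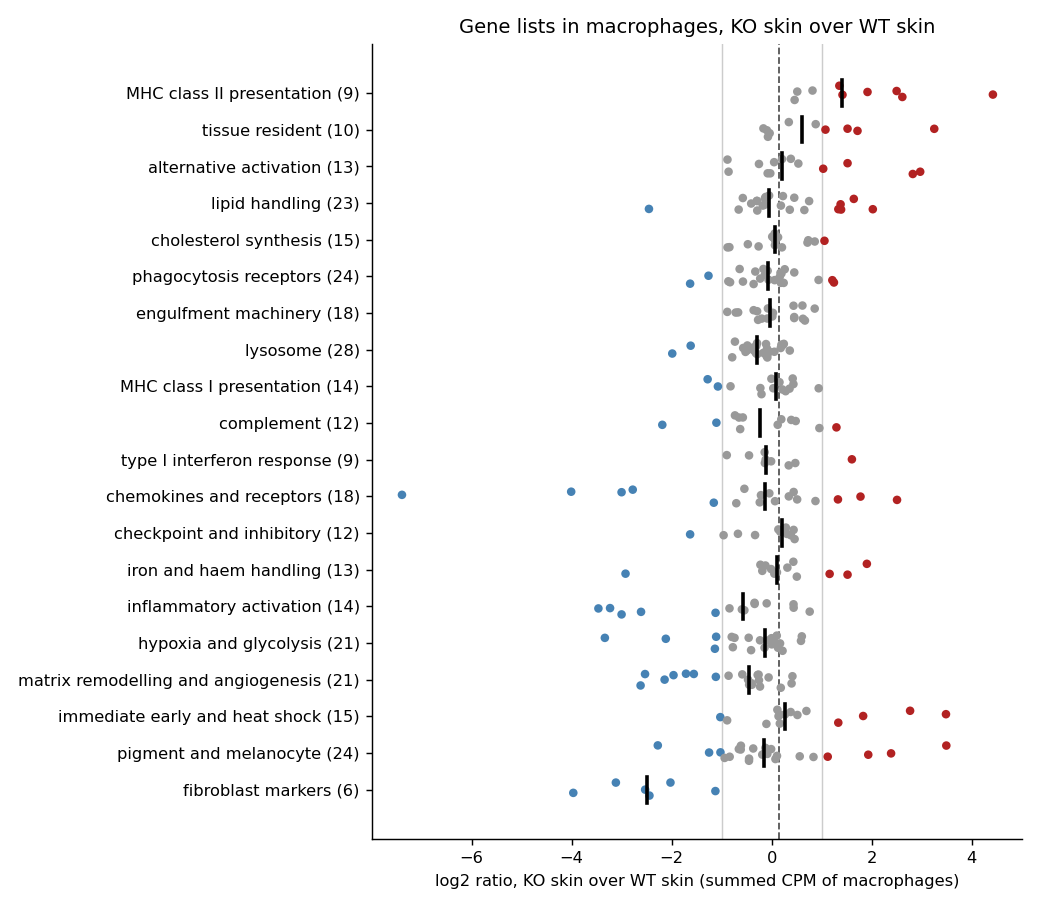
Each point is a gene of a fixed list with at least 20 CPM in 1 of the 2 matrices, on a log2 axis of its summed CPM in KO skin macrophages over WT skin macrophages; red points are at least 2-fold higher, blue points at least 2-fold lower, black bars are list medians, the dashed line is the median of all genes (0.14) and the number of genes stands in brackets. The MHC class II list has the highest median of those drawn (1.41) and the fibroblast marker list the lowest (-2.49), while lipid handling and phagocytosis receptors lie near the median of all genes.

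MHC class II genes stood higher in KO skin macrophages. Of 9 genes of the list that could be compared (13 listed), 6 were at least 2-fold higher and 0 lower, with a median log2 ratio of 1.41. Cd74, the invariant chain that guides class II molecules to endosomes, stood at 1399 CPM in KO skin and 229 CPM in WT skin, a log2 ratio of 2.61 (95% interval 2.55 to 2.67). The chains of the class II molecules themselves were H2-Ab1 at 458 CPM in KO skin and 122 CPM in WT skin, H2-Eb1 at 378 and 67.0 CPM, and H2-Aa at 255 and 95.8 CPM. Ciita, the transactivator on which class II transcription depends, had 119 UMIs in KO skin (20.8 CPM) and 11 in WT skin (0.974 CPM). H2-DMa, a chain of the peptide-loading molecule, stood at 62.5 and 24.5 CPM. Ctss, the protease that trims the invariant chain, and Ifi30, an endosomal thiol reductase, were abundant in both matrices, at 10440 and 7329 CPM and at 524 and 382 CPM. H2-DMb1 stood at 25.2 and 14.3 CPM. Melanocytic cells held 43.8 and 35.2 CPM of Cd74, and in all other filtered cells together the log2 ratio of Cd74 was 0.69 and that of H2-Aa -0.46.

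The promoters of H2-Aa and H2-Eb1 are shown because both chains were past 2-fold between the matrices and because the Y box, a short element of class II promoters bound by the factor NF-Y, can be seen in them. The sequences are RefSeq windows of 300 bases on GRCm38.p6, from 250 before to 50 after the gene's start, 5′ to 3′ on the gene's strand, with the Y box letters CTGATTGG in capitals. H2-Aa lies at chr17:34287774-34288073 on the minus strand, and its motif starts 51 bases before the gene's start. H2-Eb1 lies at chr17:34305617-34305916 on the plus strand, and its motif starts 62 bases before the start.
H2-Aa: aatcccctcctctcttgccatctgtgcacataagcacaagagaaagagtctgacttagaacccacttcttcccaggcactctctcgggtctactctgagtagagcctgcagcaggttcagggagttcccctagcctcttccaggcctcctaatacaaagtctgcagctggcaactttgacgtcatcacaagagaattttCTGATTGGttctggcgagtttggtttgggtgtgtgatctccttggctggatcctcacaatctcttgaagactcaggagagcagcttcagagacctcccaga
H2-Eb1: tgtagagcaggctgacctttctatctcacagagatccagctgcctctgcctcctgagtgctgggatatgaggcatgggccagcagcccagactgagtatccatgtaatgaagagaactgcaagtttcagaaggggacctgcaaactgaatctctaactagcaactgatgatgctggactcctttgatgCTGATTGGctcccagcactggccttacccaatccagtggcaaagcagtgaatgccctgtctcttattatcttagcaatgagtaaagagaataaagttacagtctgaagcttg
Both strands were searched (the reverse is CCAATCAG), and 1346 of 32851 windows (4.10%) hold the motif. Of the 13 listed class II genes, 9 have a window and 3 hold the motif, H2-Aa, H2-Eb1 and H2-Oa, the last of which had 2 UMIs in KO skin and 4 in WT skin macrophages. A match is a description of the letters only.

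Class II RNA lay in few cells. Of the KO skin macrophages 309 of 766, and of the WT skin macrophages 614 of 1101, had no UMI of H2-Aa, H2-Ab1, H2-Eb1 or Cd74, and the median cell had 151 and 0 CPM. Cells with at least 5000 CPM of the 4 genes (0.5% of their UMIs, a level chosen after the values were seen) numbered 90 in KO skin (11.7%, 9.56 to 14.2) and 29 in WT skin (2.63%, 1.77 to 3.76), and held 84.1% and 65.6% of all class II UMIs. The level is a range and not a type: 27 and 8 cells lay between 4000 and 6000 CPM. At 1000 CPM the shares were 25.7% and 7.36%, and at 10000 CPM 7.96% and 2.00%, so KO skin had the higher share at each level. The cells above 5000 CPM had fewer UMIs than those below it, with medians of 3625 against 5324 in KO skin and 4763 against 7109 in WT skin. Depth thus differed along with class II, and its part in the share was not tested. With each cell thinned to 1000 UMIs, Cd74 was detected in 27.7% of KO skin macrophages (24.5 to 31.0) and 8.72% of WT skin macrophages (7.12 to 10.5), against 2.55% and 2.32% of melanocytic cells; unthinned, the macrophage shares were 48.7% and 24.9%.

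**Figure D2:**
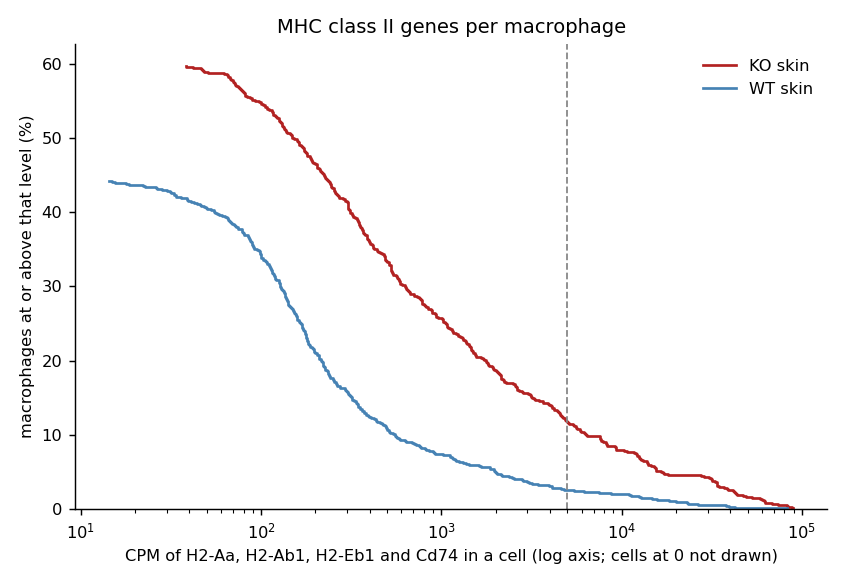
The x axis, on a log scale, gives the CPM of H2-Aa, H2-Ab1, H2-Eb1 and Cd74 together in a cell, and the y axis the percentage of KO skin macrophages (red, n = 766) and WT skin macrophages (blue, n = 1101) at or above it; the dashed line marks 5000 CPM. The KO skin curve lies above the WT skin curve at 1000, 2000, 5000 and 10000 CPM, with 11.7% and 2.63% of cells past the line.

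The macrophages above 5000 CPM of class II differed from the others in genes that the cut did not use (genes named here were chosen after their values were seen). Some of these genes differed the same way in both matrices and others in opposite ways. Ccr2, the receptor that brings monocytes out of the blood, stood at 289 CPM above the level and 12.2 CPM below it in KO skin, and at 240 and 5.86 CPM in WT skin. Mgl2, a galactose-binding lectin, stood at 297 and 5.52 CPM in KO skin and at 108 and 1.80 CPM in WT skin. A single cell held 64 of the 137 Mgl2 UMIs above the level in KO skin. Tgfbi, a matrix protein of monocyte-derived cells, was at 1505 against 233 CPM in KO skin and at 1965 against 371 CPM in WT skin. The chemokine gene Ccl9 (947 and 278 CPM in KO skin, 1256 and 369 CPM in WT skin) and the properdin gene Cfp (960 and 410, 518 and 179) were also higher above the level. Spp1, osteopontin, was lower above it, at 1765 against 4774 CPM in KO skin and 11920 against 25070 CPM in WT skin. Gpnmb was lower as well, at 9635 against 17930 CPM and 8340 against 19180 CPM. Arg1 was at 395 and 521 CPM in KO skin and at 342 and 954 CPM in WT skin. C1qa ran in opposite ways, at 2425 CPM above and 1508 CPM below in KO skin but 1559 and 2518 CPM in WT skin, and so did Fcrls, at 339 and 208 CPM in KO skin but 293 and 820 CPM in WT skin. Col1a1, a collagen gene of fibroblasts, was at 30.4 and 144 CPM in KO skin but 2102 and 756 CPM in WT skin. Of the dendritic cell markers, Cd209a, a lectin, had 11 UMIs above the level and 3 below it in KO skin, and 2 and 5 in WT skin (23.9 and 0.572 CPM, and 9.78 and 0.451 CPM). Zbtb46 had 3 UMIs above the level in KO skin and 1 in WT skin, and Flt3, Clec9a and Ccr7 had none in either matrix.

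The class II difference between the matrices was smaller within each of these groups of cells. The groups were cut on H2-Aa, H2-Ab1, H2-Eb1 and Cd74 themselves, which narrows the ratios of these genes by construction. The smaller ratios are thus a description and not a separate result. Below 5000 CPM, Cd74 stood at 271 CPM in KO skin and 85.2 CPM in WT skin, a log2 ratio of 1.67, and that of H2-Eb1 was 1.20. Without the cells above the level the ratios of H2-Ab1 (0.67), H2-Aa (0.63) and H2-DMa (0.74) were no longer past 2-fold, and the list median was 0.67. Above the level, Cd74 was at 14260 CPM in KO skin and 8042 CPM in WT skin (log2 ratio 0.83), while H2-Aa was at 2705 and 3877 CPM (-0.52). The summed difference went with a larger share of class II-high cells and with higher Cd74 in the remainder.

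MHC class I and interferon genes gave no such picture. Of 14 class I genes 0 were at least 2-fold higher and 2 lower, with a median of 0.09, which scaling to the median gene turned to -0.05. B2m, the light chain of class I molecules, was at 360 CPM in KO skin and 876 CPM in WT skin (log2 ratio -1.28), and Pdia3, an assembly factor, at 197 and 415 CPM (-1.08), but the ratios in all other cells were -1.29 and -0.91. The heavy chain gene H2-K1 stood at 530 and 457 CPM. Of 9 type I interferon response genes 1 was higher, Oas2, a sensor of double-stranded RNA, at 31.7 and 10.4 CPM, and 0 were lower, with a median of -0.12. Bst2, tetherin, was at 679 and 685 CPM. Of 5 interferon-gamma response genes 1, Ciita, was higher and 0 lower, with a median of 0.05, and Irf1, an interferon-induced transcription factor, stood at 41.7 and 25.4 CPM.

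Genes of polarisation split between the matrices. Of 13 alternative activation genes 4 were at least 2-fold higher in KO skin and 0 lower, and of 14 inflammatory activation genes 0 were higher and 5 lower, with medians of 0.21 and -0.57. The 4 were lectin and scavenger receptor genes and a transcription factor. Mgl2 stood at 29.1 CPM in KO skin and 3.72 CPM in WT skin (log2 ratio 2.97), Clec10a, its close relative, at 28.7 and 4.07 CPM (2.82), and Cd163, the receptor for haemoglobin bound to haptoglobin, at 27.3 and 9.56 CPM (1.51). Egr2 was at 29.1 and 14.3 CPM, a ratio no longer past 2-fold without the class II-high cells (0.63). The 2 lectin genes have similar sequences, and how reads were divided between them was not stated by the sources used. Each of the 4 rested on 156 to 166 UMIs in KO skin. A single KO skin cell held 64 of the Mgl2 UMIs and 1 held 36 of the Cd163 UMIs. The highest count in a cell was 9 for Clec10a and 10 for Egr2. Of the 166 Mgl2 UMIs in KO skin, 137 lay in the class II-high cells, while Cd163 had 0 of 156 UMIs in those cells in KO skin and 36 of 108 in WT skin. The abundant genes of the list were lower in KO skin without passing 2-fold: Mmp12, macrophage elastase, at 3409 and 6199 CPM, and Arg1, arginase 1, at 510 and 942 CPM. Arg1 UMIs were detected in 13.8% of KO skin and 27.7% of WT skin macrophages thinned to 1000 UMIs, against 0.787% and 4.17% of melanocytic cells (22.7% and 48.1% of macrophages unthinned). The tenth of macrophages with most Arg1 held 91.0% of its UMIs in KO skin and 73.1% in WT skin, against 26.0% and 33.1% for Apoe.

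The inflammatory genes that were lower in KO skin were mostly also lower in its other cells. Cxcl2, a neutrophil attractant, stood at 31.9 CPM in KO skin and 255 CPM in WT skin macrophages (log2 ratio -3.00), Il1b at 6.13 and 67.6 CPM (-3.46) and Ptgs2, cyclooxygenase 2, at 4.55 and 42.8 CPM (-3.23). Neutrophils of the same matrices held far more, 448 and 5607 CPM of Cxcl2 and 820 and 3129 CPM of Il1b, and the ratios in all other cells were -4.88, -3.63 and -3.53. Thinned to 1000 UMIs, Il1b was detected in 0.653% of KO skin and 3.63% of WT skin macrophages, and in 0.378% and 4.70% of melanocytic cells, so the WT skin macrophage share did not exceed that background. Nos2, inducible nitric oxide synthase, was at 8.93 and 54.6 CPM, against 1.28 and 8.65 CPM in melanocytic cells. A single WT skin macrophage held 145 of the 617 Nos2 UMIs of that matrix. Cd86, a costimulatory ligand, was at 16.5 and 35.8 CPM (-1.12, or -0.93 thinned). Tnf stood at 22.9 and 24.6 CPM and Ccl3 at 185 and 271 CPM. Of 3 neutrophil markers that could be compared 2 were lower and 0 higher, with a median of -1.47. S100a8 was at 25.6 and 71.1 CPM and S100a9 at 19.1 and 80.4 CPM, against 27.0 and 99.2 CPM of S100a9 in melanocytic cells, and 0 KO skin and 19 WT skin macrophages met the neutrophil gate. Their part in the inflammatory difference was not tested.

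Genes of resident macrophages leaned to KO skin. Of 10 such genes 4 were at least 2-fold higher and 0 lower, with a median of 0.61. Lyve1, the hyaluronan receptor of perivascular macrophages, was at 25.2 CPM in KO skin and 2.66 CPM in WT skin (144 and 30 UMIs), Cbr2, a carbonyl reductase, at 123 and 37.5 CPM, and F13a1, a coagulation factor chain made by tissue macrophages, at 674 and 320 CPM. F13a1 was not past 2-fold when each cell was thinned (0.84), and Cd163 is on this list too. A single KO skin cell held 37 of the 144 Lyve1 UMIs, and 1 held 36 of the 156 Cd163 UMIs. Folr2, a folate receptor, stood at 80.7 and 83.1 CPM, and Gas6, the ligand of the TAM receptors, at 341 and 383 CPM. Selenop was at 7016 and 7499 CPM, below its level of 8418 and 13740 CPM in melanocytic cells. Outside the lists, and chosen after their values were seen, Cd5l, a lipid-binding protein secreted by macrophages, was at 104 and 17.8 CPM and Tmem119 at 9.81 and 114 CPM. Fcrls, which like Tmem119 is known from brain microglia, was at 218 and 810 CPM. Fcrls was found in 16.6% of KO skin and 48.2% of WT skin macrophages thinned to 1000 UMIs, against 0.241% and 1.19% of melanocytic cells (36.7% and 75.2% of macrophages unthinned).

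**Figure D3:**
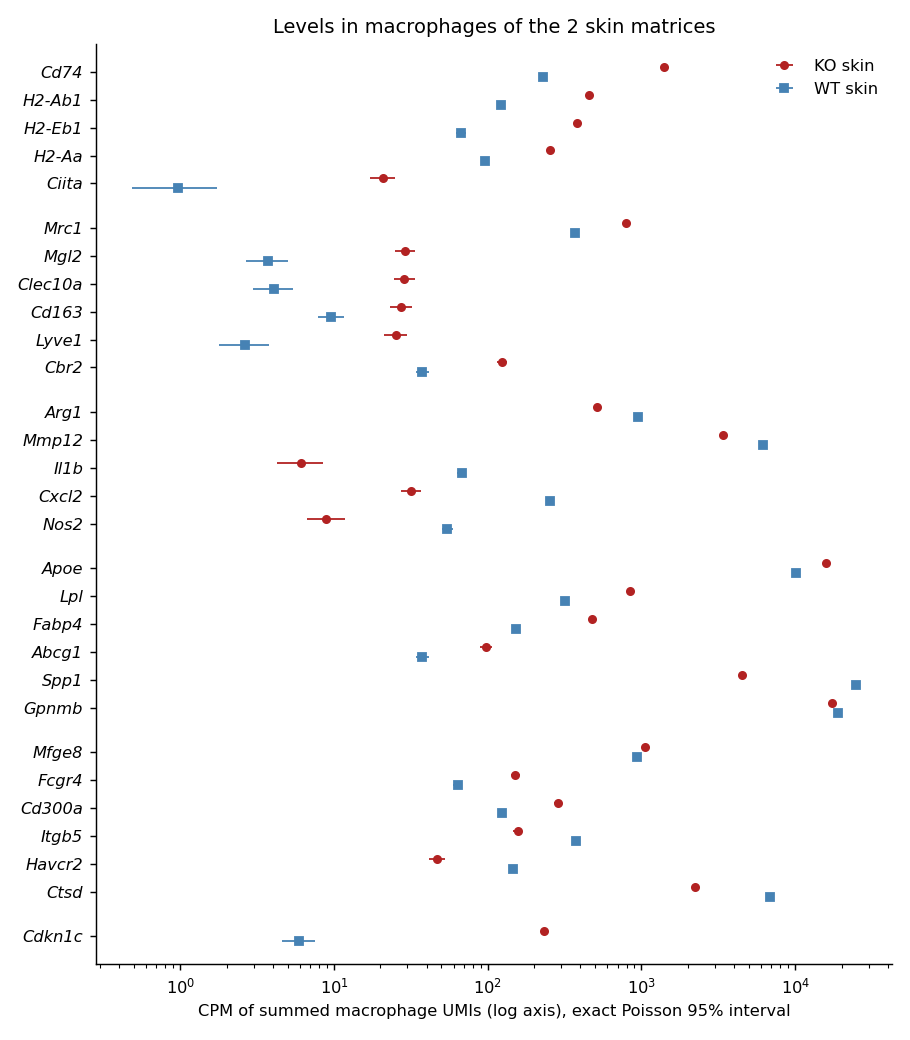
The x axis (log scale) gives the CPM of named genes over the summed UMIs of KO skin macrophages (red circles, 766 cells) and WT skin macrophages (blue squares, 1101 cells), with exact Poisson 95% intervals; the rows run from class II through polarisation, lipid and phagocytosis genes to Cdkn1c. The class II genes, Lpl, Fabp4 and Cdkn1c lie to the right in KO skin, while Il1b, Cxcl2, Spp1 and Ctsd lie to the right in WT skin, and Mfge8 and Gpnmb nearly coincide (1048 and 939 CPM, 17260 and 18980 CPM).

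Of 23 lipid handling genes 5 were at least 2-fold higher in KO skin and 1 lower, with a median of -0.05. The 5 belong to uptake, transport and the nuclear receptors over them. Fabp4, a fatty acid carrier, stood at 473 CPM in KO skin and 152 CPM in WT skin (log2 ratio 1.64), and Lpl, the lipase that frees fatty acids from lipoproteins, at 837 and 320 CPM (1.39). Abcg1, a cholesterol exporter, was at 97.4 and 37.5 CPM (1.38), Nr1h3, the oxysterol receptor LXR alpha, at 29.1 and 7.17 CPM (2.02), and Pparg, a fatty acid receptor, at 23.8 and 9.47 CPM (1.33; 0.75 in the third of cells with the lowest pigment share). In melanocytic cells Fabp4 stood at 9.25 and 30.2 CPM and Lpl at 13.7 and 11.7 CPM. Lpl was detected in 42.7% of KO skin and 20.2% of WT skin macrophages thinned to 1000 UMIs, against 1.74% and 1.06% of melanocytic cells (72.4% and 50.9% of macrophages unthinned).

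Spp1 was the member that ran the other way, at 4531 CPM in KO skin and 24840 CPM in WT skin, a log2 ratio of -2.45. Its ratio in all other cells was -2.93, with 539 and 4852 CPM in melanocytic cells, and it was as large in the macrophages with the lowest pigment share, at 7012 and 42220 CPM. Apoe, the main apolipoprotein of macrophages, stood at 15840 CPM in KO skin and 10080 CPM in WT skin (0.65), and Gpnmb, a glycoprotein of lysosomes and melanosomes, at 17260 and 18980 CPM, against 10860 and 8756 CPM in melanocytic cells. Trem2, a lipid-sensing receptor, was at 329 and 241 CPM, the scavenger receptor Cd36 at 667 and 588 CPM, the droplet coat gene Plin2 at 603 and 665 CPM, and Abca1 at 352 and 383 CPM. Of 15 cholesterol synthesis genes 1 was higher and 0 were lower, with a median of 0.06, which scaling to the median gene turned to -0.08.

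Cdkn1c, which encodes the cell cycle inhibitor p57, was among the 10 highest ratios of all genes and lay in few cells. It stood at 234 CPM in KO skin and 5.93 CPM in WT skin macrophages (log2 ratio 5.30, 4.95 to 5.68), against 4.33 and 0.411 CPM in melanocytic cells. Cells with at least 3 Cdkn1c UMIs, a cut chosen after the values were seen, numbered 77 in KO skin (10.1%, 8.02 to 12.4) and 6 in WT skin (0.545%, 0.200 to 1.18), and held 96.1% and 58.2% of its UMIs. The same rule applied to the matrix labelled KO ocular, tumour tissue of knockout cells in the eye, gave 236 macrophages, of which 21 (8.90%, 5.59 to 13.3) had at least 3. Depth differed with the cut, with medians of 7804 UMIs in these cells and 4411 in cells with none in KO skin, 11440 and 6940 in WT skin, and 28620 and 11180 in KO ocular. Thinned to 1000 UMIs, a Cdkn1c UMI was found in 8.09% of KO skin and 0.454% of WT skin macrophages, against 0.430% and 0.113% of melanocytic cells (15.1% and 2.72% of macrophages unthinned). Of the 77 cells 1 was also above 5000 CPM of class II.

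In KO skin, 68 of 4924 genes with enough UMIs (1.38%) were at least 2-fold higher in cells with at least 3 Cdkn1c UMIs than in cells with none, and 123 (2.5%) at least 2-fold lower; in KO ocular the shares were 2.82% and 7.23% of 4787 genes. The 12 genes highest and the 12 lowest in KO skin at 50 CPM or more were then read in KO ocular, a matrix not used to pick them, where 11 of 12 were at least 2-fold higher (all but Tspan7) and 12 of 12 at least 2-fold lower, by the ratio of CPM + 1. H2-M2, counted among the higher ones, had only 2 UMIs with Cdkn1c and 1 without in KO ocular. KO skin and KO ocular shared no full barcode, but 2014 barcodes had the same first 16 bases. A Y-linked UMI was present in 66.95% of KO ocular macrophages, against 43.1% in KO skin and 0.182% in WT skin. The part of either in the match of the 2 matrices was not tested. Mfge8, a bridge between phosphatidylserine on dying cells and integrins of the phagocyte, was the most abundant of them, at 3621 CPM with Cdkn1c and 522 CPM without in KO skin, and 6663 and 914 CPM in KO ocular. Bex1 stood at 128 and 9.41 CPM in KO skin and 464 and 15.6 CPM in KO ocular, and Ly75, the endocytic receptor DEC-205, at 71.8 and 10.1 CPM and 148 and 19.3 CPM. On the low side, Arg1 stood at 35.9 CPM with Cdkn1c and 606 CPM without in KO skin, and at 3.09 and 352 CPM in KO ocular. Stab1, a scavenger receptor, was at 34.6 and 503 CPM and 3.09 and 276 CPM, and the chemokine gene Ccl2 at 12.8 and 268 CPM and 4.63 and 325 CPM.

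Members of the lists also differed in those cells, and the ones given here were chosen after their values were seen. Of class II, Cd74 was at 256 CPM with Cdkn1c and 1665 CPM without in KO skin. Of the rule genes, C1qa was at 320 and 1849 CPM in KO skin and 41.6 and 1318 CPM in KO ocular, while Csf1r was at 235 and 336 CPM and 244 and 397 CPM. Lipid handling genes ran both ways. Higher with Cdkn1c were Fabp4 at 1128 and 338 CPM in KO skin and 549 and 230 CPM in KO ocular, Cd36 at 1238 and 552 CPM and 2258 and 1132 CPM, and Fabp5 at 3476 and 1690 CPM and 9858 and 5244 CPM. Lower were Apoe, at 12490 and 16430 CPM in KO skin and 8745 and 13930 CPM in KO ocular, and Abca1, at 246 and 376 CPM and 219 and 432 CPM. Atp6v0d2, a subunit of the lysosomal proton pump, was at 552 and 206 CPM and 955 and 435 CPM, and Mertk, a receptor for dying cells, at 372 and 185 CPM and 416 and 213 CPM. The proliferation gene Mki67 stood at 20.5 and 73.4 CPM and 33.9 and 101 CPM. In WT skin the 6 cells with at least 3 Cdkn1c UMIs had 5922 CPM of Mfge8, against 874 CPM in cells with none. Most Mfge8 UMIs of WT skin still lay in cells with none, 9403 against 766 in the 6 cells. Arg1 was at 781 CPM in the 6 cells and 942 CPM in cells with none. Pigment genes took 0.555% of UMIs with Cdkn1c and 0.624% without in KO skin.

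**Figure D4:**
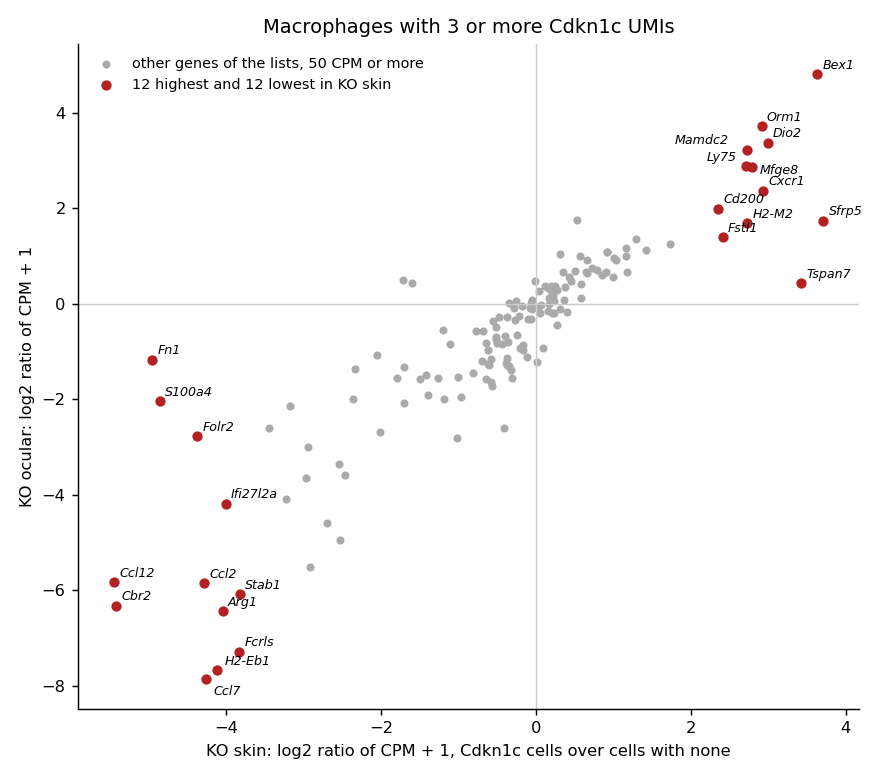
Each point is a gene with at least 50 CPM, at its log2 ratio of CPM + 1 in macrophages with at least 3 Cdkn1c UMIs over those with none, in KO skin (x axis, 77 and 650 cells) and KO ocular (y axis, 21 and 203 cells); the 12 highest and 12 lowest genes of KO skin are red and named, and grey points are other genes of the lists. The red genes on the right lie above 0 in KO ocular as well, Tspan7 nearest to 0, and all red genes on the left lie below 0.

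Receptors and bridges of phagocytosis differed little as a group. Of 24 such genes 2 were at least 2-fold higher in KO skin and 2 lower, with a median of -0.07, and of 18 genes of the engulfment machinery 0 were higher and 0 lower, with a median of -0.03. Fcgr4, an activating receptor for IgG, was at 151 CPM in KO skin and 63.6 CPM in WT skin (log2 ratio 1.24), and Cd300a, an inhibitory receptor for phosphatidylserine, at 285 and 123 CPM (1.21). Havcr2, the phosphatidylserine receptor and checkpoint TIM-3, was at 46.9 and 145 CPM (-1.63), and Itgb5, an integrin chain that binds Mfge8, at 157 and 377 CPM (-1.26). The most abundant members were alike within 2-fold: Sirpa, the receptor of the CD47 signal, at 1297 and 1099 CPM, Lrp1 at 1278 and 1337 CPM, Mfge8 at 1048 and 939 CPM and Fcer1g, the signalling chain of Fc receptors, at 1045 and 1226 CPM. The TAM receptor genes Mertk and Axl stood at 214 and 190 CPM and at 440 and 230 CPM, with Axl below its 605 and 332 CPM in melanocytic cells.

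Lysosome genes leaned lower in KO skin, 0 of 28 at least 2-fold higher and 2 lower, with a median of -0.29. Ctsd, the protease cathepsin D, was at 2229 CPM in KO skin and 6852 CPM in WT skin (-1.62). In all other cells its ratio was -1.47, and melanocytic cells held 742 and 1928 CPM. Ctsb, cathepsin B, was the most abundant lysosome gene, at 11740 and 14620 CPM, with Psap, the precursor of the saposins, at 4338 and 4182 CPM, and Lamp1 stood at 1110 and 1427 CPM.

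Of 12 complement genes 1 was higher, Cfp, at 454 CPM in KO skin and 185 CPM in WT skin (log2 ratio 1.29, or 0.89 thinned), and 2 were lower, with a median of -0.23. C4b was at 155 and 705 CPM but at 17.0 and 1818 CPM in melanocytic cells, and in the third of macrophages with the lowest pigment share its ratio was 1.16 in place of -2.19, with 215 and 96.2 CPM. Serping1 was at 13.5 and 29.0 CPM, and its sign also changed under other settings. C3ar1, the C3a receptor, stood at 433 and 670 CPM. Of 18 chemokine and receptor genes 3 were higher and 5 lower, with a median of -0.13. Ccl8 (177 CPM in KO skin and 31.2 CPM in WT skin), Ccl12 (214 and 85.4 CPM) and Ccr2 (34.5 and 10.1 CPM) were the higher ones, all concerned with monocytes. Ccl2, another monocyte attractant, was lower, at 217 and 484 CPM, or a log2 ratio of -0.92 as a mean over cells against -1.16 summed. Cxcl1 (3.33 and 53.5 CPM), Cxcl2 and Cxcl3 (1 UMI in KO skin and 332 in WT skin), all of them neutrophil attractants, and Cxcl14 (12.6 and 86.5 CPM) made up the remainder.

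Iron and haem genes included 3 of 13 higher and 1 lower, with a median of 0.10. Slc40a1, the iron exporter ferroportin, was at 87.9 CPM in KO skin and 23.5 CPM in WT skin, Blvrb, a biliverdin reductase, at 244 and 110 CPM, and Cd163 was the third. The lower one, Cp, was at 3.15 and 23.9 CPM, less than its 53.7 CPM in WT skin melanocytic cells. Hmox1, haem oxygenase, stood at 1428 and 1628 CPM, and Fth1, the ferritin heavy chain, at 9970 and 8029 CPM. Of 12 checkpoint and inhibitory genes 1 was lower, Havcr2, and 0 were higher, with a median of 0.20. Of 15 immediate early and heat shock genes, which can respond to dissociation, 4 were higher and 1 lower, with a median of 0.26: Hspa1a at 124 and 11.1 CPM, Hspa1b at 99.3 and 14.6 CPM, Atf3 at 408 and 115 CPM and Jun at 809 and 322 CPM, and Dusp1 at 75.7 and 154 CPM. In melanocytic cells Hspa1a was at 2.98 and 1.59 CPM. The highest count in 1 KO skin macrophage was 233 UMIs of Hspa1a and 181 of Hspa1b.

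Some matrix and hypoxia genes and the fibroblast markers were lower in KO skin macrophages. Of 21 matrix remodelling genes 7 were at least 2-fold lower and 0 higher, with a median of -0.45, among them Thbs1 (82.1 and 475 CPM), Mmp13 (52.0 and 320 CPM), Fn1 (377 and 1109 CPM) and Sparc (278 and 912 CPM), and the ratios of these in all other cells lay from -3.96 to -1.41. Fn1 had a ratio of -0.37 in the third of macrophages with the lowest pigment share, against -1.56 over all. Of 21 hypoxia and glycolysis genes 4 were lower and 0 higher, with a median of -0.14: Car9, Egln3, Aldoa and Pgk1. The ratios of these 4 in all other cells were -3.86, -2.32, -1.08 and -0.92, while Hk2, hexokinase 2, stood at 522 CPM in KO skin and 348 CPM in WT skin macrophages. Car9 was at 5.95 and 60.1 CPM, and in the third of macrophages with the lowest pigment share its ratio was -0.28 in place of -3.34. All 6 fibroblast markers that could be compared were lower, with a median of -2.49 and 331 and 1730 CPM over the 12 listed, against 48776 and 38365 CPM in fibroblasts. The fibroblast gate was met by 6 KO skin macrophages (0.783%) and 49 WT skin macrophages (4.45%). Without cells meeting the T and NK, neutrophil, fibroblast or endothelial gate, Col1a1 had a ratio of -0.34 in place of -2.53 (135 and 781 CPM). The melanocytic gate was not used in that setting. Of 18 cell cycle genes 1 was lower and 0 higher, with a median of -0.38. The lower one was Mki67, at 63.6 and 165 CPM, close to 70.2 and 160 CPM in melanocytic cells. Of 14 oxidative phosphorylation genes 0 were higher and 0 lower, with a median of -0.15.

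Markers of the remaining cell types were sparse. Of 7 monocyte markers 1 was higher in KO skin macrophages, Ccr2, and 2 were lower, Fn1 and Hp, haptoglobin, at 10.5 CPM in KO skin and 61.5 CPM in WT skin, with a median of 0.21. Of the T and NK cell list only Cd4 (52.2 and 51.2 CPM) and Il7r (99.6 and 113 CPM), both of which macrophages also express, could be compared. From the endothelial list Eng and Egfl7 and from the dendritic cell list Cacnb3 could be compared, with 0 higher and 0 lower. B cell and keratinocyte lists had no gene at 20 CPM, with sums of 21.2 and 9.91 CPM and of 18.9 and 43.9 CPM. Of 3 erythroid genes 1 was lower, Hbb-bt, at 14.7 and 32.6 CPM, and of 3 liver and plasma protein genes Alb was lower and Ttr, transthyretin, was higher, at 464 and 49.1 CPM, against 752 and 57.6 CPM in melanocytic cells.

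Pigment and melanocyte genes were read as RNA that may come from uptake, from free RNA in the droplet or from doublets, which were not removed. These cannot be told apart here. Dct, Tyrp1, Tyr, Pmel and Mlana, enzymes and matrix proteins of the melanosome, took a median of 0.604% of the UMIs of a KO skin macrophage and 0.569% of a WT skin macrophage, against 3.18% and 4.42% in melanocytic cells. The 90th percentile of cells was at 2.96% and 3.66%, and 1 and 3 cells had none. Detection alone did not separate cell types, since 538 KO skin and 875 WT skin macrophages also met the melanocytic gate. Levels over the summed UMIs of a cell type were then compared for 23 of the 24 listed genes. These sums were uneven: the tenth of macrophages with most Dct held 65.1% of its UMIs in KO skin and 73.7% in WT skin. The summed macrophage level was a median of 45.9% of the melanocytic level in KO skin (33.2 to 56.4) and 42.6% in WT skin (34.4 to 50.5). The same ratio was 83.2% and 83.6% in neutrophils, 61.3% and 62.3% in fibroblasts and 50.6% and 50.1% in endothelial cells. The ratio held for the transcription factors as for the melanosome genes: with the level in macrophages over that in melanocytic cells as a fraction, Sox10 was at 0.434 in KO skin and 0.453 in WT skin, Mitf at 0.523 and 0.505, and Dct at 0.484 and 0.426.

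Between the matrices, 4 of the 24 genes were at least 2-fold higher in KO skin macrophages and 3 lower, with a median of -0.16, the same directions as in melanocytic cells for all but Ednrb. Tyr was at 437 and 889 CPM (log2 ratio -1.02; -1.06 in all other cells) and Slc45a2, a melanosomal transporter, at 822 and 1957 CPM (-1.25; -1.26), while Cited1 was at 858 and 225 CPM (1.93; 1.74). Ednrb, the endothelin receptor, was the exception: 61.5 and 11.8 CPM in macrophages and 1.57 and 1.86 CPM in melanocytic cells. Endothelial cells held more, at 244 times the melanocytic level in KO skin and 140 times in WT skin, against 39.2 and 6.33 times in macrophages. The cells of each matrix were also cut by their level of pigment RNA into 3 equal groups. From the lowest to the highest group, median UMIs were 5267, 3658 and 7914.5 in KO skin and 7446, 5469 and 8717 in WT skin. Depth was thus least in the middle group and greatest in the highest group of both matrices. The rule genes together stood at 11560, 10820 and 3765 CPM in KO skin and 10910, 12430 and 3819 CPM in WT skin. They were thus lowest in the highest pigment group of both matrices, and the part of doublets in this was not tested. Cd74, Lpl and Spp1 kept their sign in all 3 groups: the log2 ratio was 3.02, 2.27 and 2.17 for Cd74, 1.22, 1.39 and 1.81 for Lpl, and -2.59, -2.31 and -2.31 for Spp1. This did not hold for all genes. In the lowest group 276 of the 590 higher and 174 of the 394 lower genes were again past 2-fold. Among the named genes C4b, Dcn, Hbb-bt and Serping1 changed sign there.

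**Figure D5:**
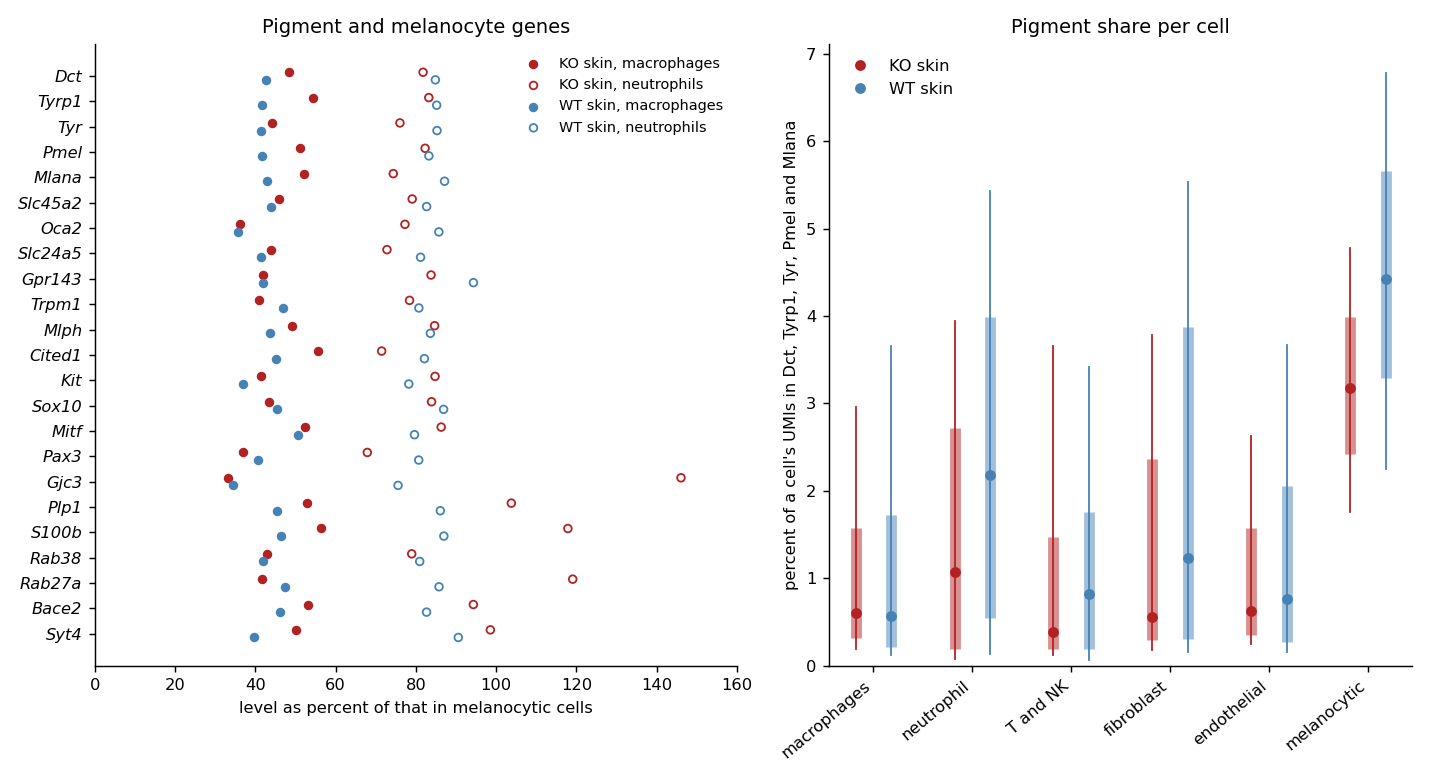
Left, the level of 23 pigment and melanocyte genes in macrophages (filled) and neutrophils (open) as a percentage of that in melanocytic cells of the same matrix, KO skin in red and WT skin in blue; right, the percentage of a cell's UMIs in 5 pigment genes by cell type, with the median (point), quartiles (bar) and 10th to 90th percentile (line). Summed over cells, macrophages lie at 33.2% to 56.4% of the melanocytic level in KO skin and 34.4% to 50.5% in WT skin. For each gene they lie below the neutrophils of their matrix.

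The largest ratios of all genes fell into those shared with the tumour cells and those higher in macrophages. Among the 10 highest at 50 CPM or more, Mrgprb1, a receptor gene known from mast cells, was at 207 CPM in KO skin and 0.443 CPM in WT skin macrophages (1183 and 5 UMIs), but at 476 and 0.842 CPM in melanocytic cells, and Mrgprx2, Pvalb, Ttr and Atp1b1 also had lower levels in KO skin macrophages than in its melanocytic cells. Cdkn1c, Hspa1a, Hspa1b and Gadd45g (141 and 18.1 CPM, against 43.6 and 7.09 CPM) were the 4 with a higher level in macrophages. Among the 10 lowest, Serpine2 (4.03 and 197 CPM), Atp1b2, Cdh19 and Bpifa2 (1 UMI and 574 UMIs) were lower in WT skin macrophages than in its melanocytic cells. A single WT skin macrophage held 436 of the 574 Bpifa2 UMIs. Tnc (2.63 and 171 CPM, against 1.66 and 22.2 CPM), Col12a1, Inhba, Mmp3, Lox and Cxcl1 were higher in WT skin macrophages than in those cells, and Tnc stood at 485 CPM in KO skin and 2967 CPM in WT skin fibroblasts. Plasma protein RNA also differed: Alb had 0 UMIs in KO skin macrophages, where the level of 3 UMIs, taken as the limit that a count of 0 allows, is 0.525 CPM, and 365 UMIs (32.3 CPM) in WT skin macrophages, with 120 CPM in WT skin neutrophils.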

How the data were processed

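Single-cell RNA was measured in 4 matrices of 1 sample, with UMI counts deposited unnormalised. Per the file headers they were made with Cell Ranger 8.0.0, and WT ocular with 7.0.0. The other 3 matrices list 19059 genes and WT ocular 32285, so WT ocular was left out of every comparison. The submitters' processing notes name GRCm38 and mm10; aligner settings and any probe set were not stated by the sources used. Per the labels the chemistry was 3' v3.1, and a workflow for fixed tissue is named as well.

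UMIs of the macrophages were summed per matrix and scaled to CPM over all their UMIs (5.71 M in KO skin and 11.3 M in WT skin). Genes with at least 20 CPM in 1 matrix were compared, and a ratio of at least 2 was called. Sums have exact Poisson, shares exact Clopper-Pearson and ratios exact conditional binomial 95% intervals, which cover counting error only. Melanocytic, neutrophil, T and NK, fibroblast and endothelial cells were taken by marker gates among cells with fewer than 3 rule genes. Steps were checked on simulated data with known ratios. The 34 gene lists, the members and the alternatives were chosen with earlier results of these data known. Named genes were the 10 highest and 10 lowest ratios at 50 CPM or more, per list the 4 highest in KO skin and all past 2-fold, the rule genes, other cells' defining markers, the 20 genes most enriched in macrophages, and others where said; a few of these are not reported here. Python 3.11.15, NumPy 2.4.6, SciPy 1.17.1, pandas 2.3.3, Scanpy 1.11.5 and matplotlib 3.10.9 were used.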

Additional observations from a re-analysis of the deposited data

How the results depend on the processing

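No paired analysis was possible because each genotype had 1 matrix, and no replicate could be left out. Against 590 genes higher and 394 lower, the counts were 392 higher when scaled to the median gene, 339 and 232 with a minimum of 50 CPM, and 102 and 106 among genes at least 2-fold above melanocytic cells, the last chosen after seeing the data. The other settings kept both counts within 1.5 times, but not the same genes: in the third of cells with the lowest pigment share 276 of the higher and 174 of the lower were shared, and with the melanocytic profile subtracted 221 and 215, with 3 and 11 changing side. Without cells sharing 16 barcode bases the counts were 541 and 415. The settings on the lowest pigment share, subtraction, shared barcodes, other gates and class II were also chosen after seeing the data. The other gates were those of T and NK, neutrophil, fibroblast and endothelial cells, so meeting the melanocytic gate removed no cell.

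The macrophage share of 6.25% in KO skin became 4.92% with 6 of 8 rule genes and 10.1% without the excluded genes. That of 11.1% in WT skin became 9.23% and 16.2%, 12.6% with at least 2000 UMIs and 10.3% without the highest Scrublet scores. KO skin kept the lower share under each. The excluded genes removed 467 of 1233 cells that met the rest of the rule in KO skin and 500 of 1601 in WT skin. A Csf3r UMI was present in 424 and 435 of the removed cells. Gene levels were not compared without that exclusion.

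Of 217 named genes compared, 113 were past 2-fold, 81 of them under every alternative. Among the 113, the log2 ratio changed sign for Serping1 (0.41 thinned, 0.00682 without cells meeting another gate, 0.025 at the lowest pigment share). It also did for Col5a1 (0.16 without cells meeting another gate) and Cp (0.91 with the melanocytic profile subtracted). C4b (1.16), Dcn (0.32) and Hbb-bt (1.14) changed sign at the lowest pigment share. The cause was not tested. Genes not past 2-fold crossed 0 as well, such as Mfge8 (-0.48 to 0.51) and Selenop (-0.24 to 1.01). List medians ranged from 0.67 to 1.99 for class II, 0.47 to 1.09 for resident, -0.71 to -0.29 for inflammatory and -0.35 to 1.18 for pigment genes. Single counts limit genes such as Bpifa2 and Cxcl3, and 1 matrix a genotype limits every comparison. Single cells limit others. The highest count in 1 WT skin cell was 436 UMIs for Bpifa2, 345 for Mmp3, 198 for Cxcl1 and 145 for Nos2. In 1 KO skin cell it was 233 for Hspa1a and 181 for Hspa1b.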
